A study of Mus musculus with 12 samples.

Results

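The genes described here encode the receptor chains for GM-CSF, IL-3 and IL-5: Csf2ra, Il3ra and Il5ra for the 3 ligand-specific alpha chains, and Csf2rb and Csf2rb2 for the 2 beta chains. They were taken by annotated gene symbol, as 5 of the 16593 genes named on the array, and every probe with one of these symbols was kept separate. That gave 7 of 25697 probes: 3 for Csf2rb and 1 for each other gene. The samples were bone marrow progenitors of C57BL/6J mice, sorted as c-Kit-positive cells with vector fluorescence and no mature lineage markers, and measured on Illumina Mouse Ref-8 v2.0 BeadChips. Control cells (Mig) carried the empty retroviral vector MigR1, and RE cells carried MigR1 with tagged RUNX1-ETO, the fusion transcription factor of a recurrent translocation in acute myeloid leukaemia, for 48 h. Each kind of cell was then kept for 24 h without GM-CSF (Mig, RE) or with 10 ng/mL recombinant mouse GM-CSF (Mig+GM, RE+GM), with 3 arrays in each of the 4 groups. All cells had been grown and transduced in medium with 15% serum, 10 ng/mL IL-3, 50 ng/mL SCF and 50 ng/mL FLT3 ligand; for the last 24 h the labels name only the base medium and GM-CSF. The fusion was driven by a retroviral vector in bulk cultures, and no label ties the replicates to different mice or cultures. The p-values therefore reflect the spread among these arrays only, which may be technical.

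In these receptors an alpha chain binds its own ligand, and a beta chain joins it and carries the signal. The beta chain encoded by Csf2rb serves GM-CSF, IL-3 and IL-5 alike; mice have a second one, encoded by Csf2rb2, which works with the IL-3 alpha chain alone. The beta chain holds the kinase JAK2, and its activation leads to STAT5, RAS-ERK and PI3K signalling, with survival, division and maturation of myeloid cells as known outcomes. Csf2ra marks granulocyte and monocyte precursors, Il3ra is found on many progenitors and on basophils and mast cells, and Il5ra on eosinophils and some B cells.

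Mean deposited signals ran from 318 to 597 across the 12 arrays, and 48.3% to 56.5% of probes lay above an array's own background. RE replicate 1 was lowest on both measures and lay apart on the second principal component (43.0, the other arrays -19.0 to 16.1). The Runx1t1 probe ILMN_2662450, for the ETO part of the fusion, exceeded background on 0 of 6 arrays without the fusion and on 6 of 6 with it, as labelled. Another Runx1t1 probe, ILMN_1230714, was above background on 1 Mig and 1 Mig+GM array and on no RE or RE+GM array. No probe is annotated as Kit, so the sorted marker itself was not analysed here. Of 7 progenitor genes measured, 5 to 7 were above background on each array, beside 6 to 11 of 11 neutrophil genes. Levels below are log2 normalized signals, which include an added offset of 50, and a level is compared only within 1 probe. Errors are SD for group means and the model's standard errors (SE) for changes, with n = 3 arrays per group throughout. A probe was called where limma's adjusted p, taken over all 15405 probes kept, was under 0.05. In bulk RNA, fewer cells of a type and less RNA per cell cannot be told apart.

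RUNX1-ETO cells had higher signal than control cells on the Csf2rb2 probe, on the brightest Csf2rb probe and on the probe of the IL-3 alpha chain gene Il3ra. Without GM-CSF, Csf2rb2 was 2.98-fold, this Csf2rb probe 2.38-fold and Il3ra 1.62-fold higher, while the other Csf2rb probes, at 1.50-fold (adjusted p = 0.165) and 1.20-fold (adjusted p = 0.106), were not called. With GM-CSF, Csf2rb2 was 3.49-fold and Il3ra 2.07-fold higher, and all 3 Csf2rb probes were called, at 2.41-fold, 2.22-fold and 1.37-fold. The IL-5 alpha chain gene Il5ra was not called in either comparison. The GM-CSF alpha chain gene Csf2ra was not called in either comparison in the main fit. Without GM-CSF it passed in 3 of 19 alternatives, among them a replicate block, and with GM-CSF in 1 of 19.

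The beta chain genes lie side by side on chromosome 15 (GRCm38.p6), Csf2rb2 at 78282507 to 78305721 and Csf2rb at 78325800 to 78351001, with 20078 bases between them. Csf2rb2, read by probe ILMN_2750047, measured 9.90, 10.30 and 8.85 for replicates 1 to 3 of Mig (values of other groups and probes follow the same order) and 9.11, 9.79 and 8.88 for Mig+GM. The RE arrays measured 11.49, 11.22 and 11.07, the RE+GM arrays 10.95, 11.20 and 11.03. All 6 arrays with the fusion were above all 6 without it, and the control arrays spread over a wider range than the RUNX1-ETO arrays. Group means were 9.68 ± 0.75 for Mig and 11.26 ± 0.22 for RE, a change of 1.58 (SE 0.32, adjusted p = 0.00229), and 9.26 ± 0.47 for Mig+GM and 11.06 ± 0.13 for RE+GM, a change of 1.80 (SE 0.32, adjusted p = 0.000725). In order of level RE came before RE+GM, Mig and Mig+GM, and within each pair of neighbours that differ only by GM-CSF the arrays overlapped. The share of all probes with all 6 fusion arrays above all 6 others was not counted, here or for the probes below. With 3 arrays against 3, 20.2% of all probes were higher without overlap in RE than in Mig. For RE+GM against Mig+GM this share was 23.5%.

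**Figure D1:**
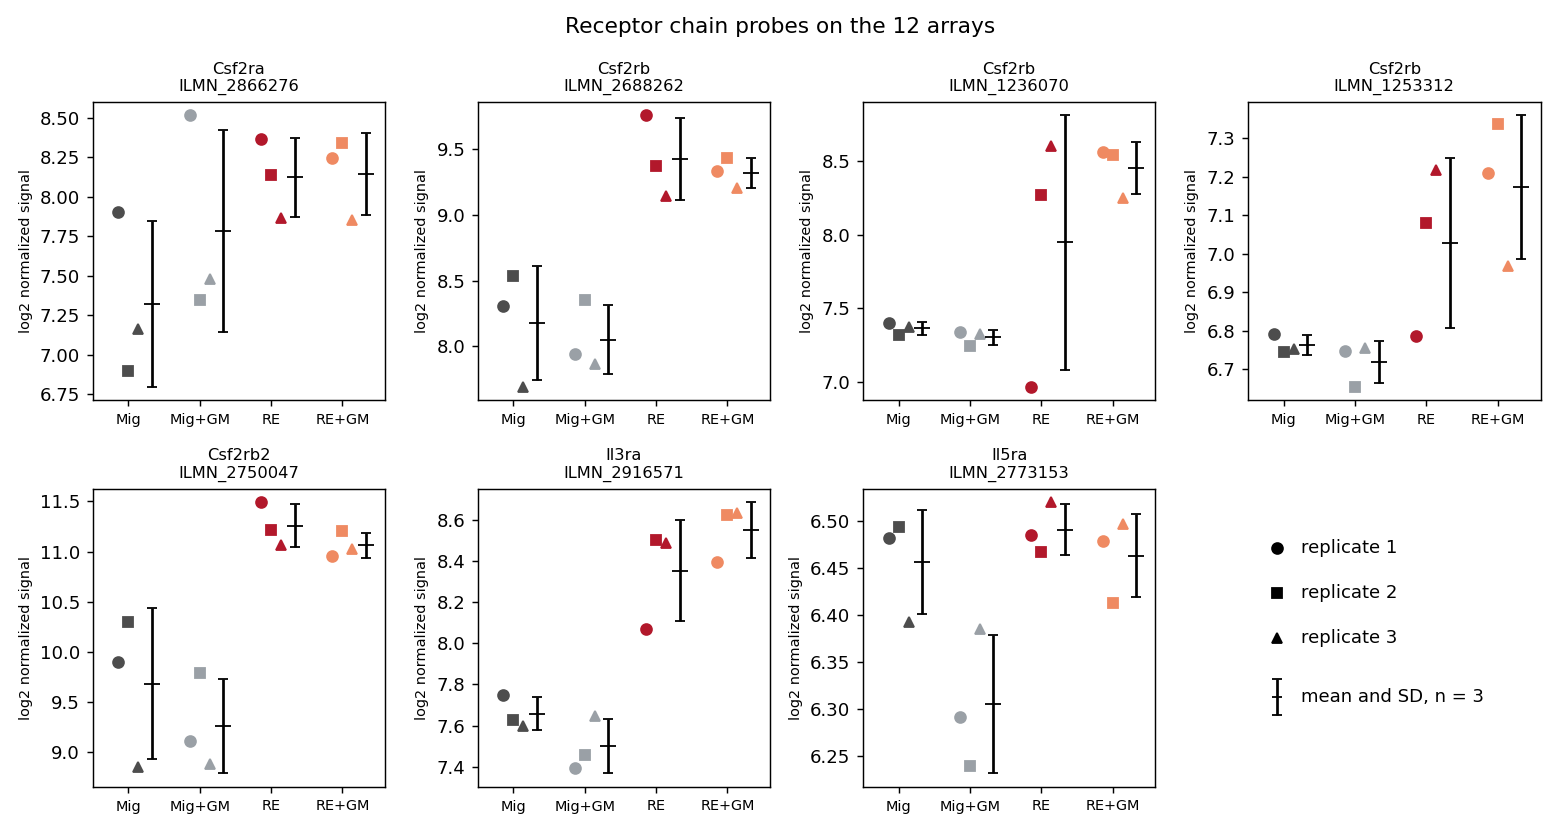
Log2 normalized signal of the 7 receptor chain probes, one panel per probe with its own axis; points are single arrays, symbols give the replicate number, and bars give the mean and SD of 3 arrays. For Csf2rb2, Il3ra and Csf2rb probe ILMN_2688262 all arrays with RUNX1-ETO lie above all arrays without it, whereas Csf2rb probes ILMN_1236070 and ILMN_1253312 are within or below the Mig range on RE replicate 1. How many probes of the whole array separate all RUNX1-ETO arrays from all control arrays was not counted.

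Csf2rb, the shared beta chain, had 3 probes. The brightest, ILMN_2688262, measured 8.30, 8.54 and 7.69 on the Mig arrays and 7.94, 8.35 and 7.86 on the Mig+GM arrays. The RE arrays had 9.76, 9.37 and 9.14, the RE+GM arrays 9.33, 9.43 and 9.20. Here too the RUNX1-ETO arrays lay above all control arrays. The change was 1.25 without GM-CSF (SE 0.22, adjusted p = 0.000803) and 1.27 with it (SE 0.22, adjusted p = 0.000537).

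The next probe, ILMN_1236070, read 7.40, 7.32 and 7.38 on the Mig arrays and 7.34, 7.24 and 7.33 on the Mig+GM arrays, a very narrow range. The RE arrays had 6.97, 8.27 and 8.60, the RE+GM arrays 8.56, 8.54 and 8.25. RE replicate 1 was thus below every control array on this probe, although it was the highest of all 12 arrays on ILMN_2688262. The change without GM-CSF, 0.58 (SE 0.31, 95% interval -0.09 to 1.26), was not called (adjusted p = 0.165), and with GM-CSF it was 1.15 (SE 0.31, adjusted p = 0.00969). Without RE replicate 1 the first of these became 1.07 and was called (adjusted p = 7.07e-05, range over alternatives 7.07e-05 to 0.522).

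The dimmest probe, ILMN_1253312, gave a like picture at a smaller size. It read 6.79, 6.74 and 6.75 on the Mig arrays and 6.75, 6.65 and 6.75 on the Mig+GM arrays. The RE arrays had 6.79, 7.08 and 7.22, the RE+GM arrays 7.21, 7.34 and 6.97. Again RE replicate 1 lay within the Mig range. The change was 0.27 without GM-CSF (SE 0.12, 95% interval 0.00 to 0.53, adjusted p = 0.106), or 0.39 and called without RE replicate 1 (adjusted p = 0.0174, range over alternatives 0.0174 to 0.423). With GM-CSF it was 0.45 (SE 0.12, adjusted p = 0.00921).

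Array by array, the brightest Csf2rb probe followed Csf2rb2 more closely than it followed the other Csf2rb probes. After each probe's own mean over the 12 arrays was taken off, its root mean square distance from the Csf2rb2 probe was 0.29 on the log2 scale, against 0.61 from ILMN_1236070 and 0.55 from ILMN_1253312. On this distance, which includes the shift between groups, the closeness is not particular to the beta chains. The Il3ra probe, at 0.39, was also nearer than the other Csf2rb probes, and 170 probes were as close to ILMN_2688262 as the Csf2rb2 probe. With group means removed, Csf2rb2 was at 0.17, Il5ra at 0.25, ILMN_1253312 at 0.31, Il3ra at 0.32, Csf2ra at 0.43 and ILMN_1236070 at 0.53. How many other probes were as close by that second distance was not counted. Both ILMN_2688262 and the Csf2rb2 probe were lowest of the Mig arrays on replicate 3 and highest of all arrays on RE replicate 1, where the other Csf2rb probes showed neither. The encoded beta chains are near-identical copies, and probe sequences were not used here, so which of the transcripts each probe reads was not tested, and the split of the signal between the genes is uncertain.

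**Figure D2:**
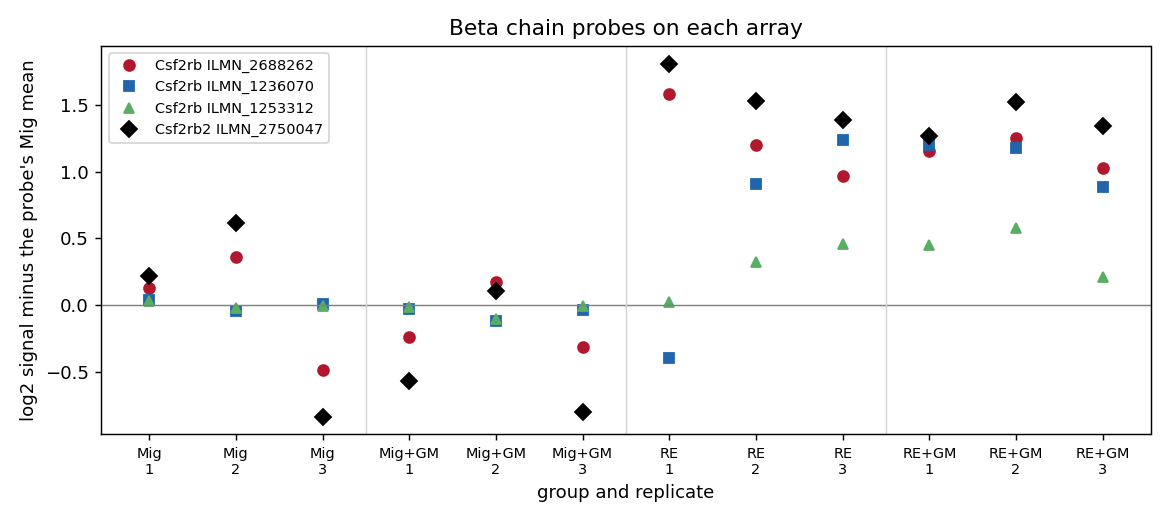
Log2 signal of the 4 beta chain probes on each of the 12 arrays, as the difference from that probe's own Mig mean (0, grey line); columns are groups and replicates. On RE replicate 1 Csf2rb2 and Csf2rb ILMN_2688262 are 1.81 and 1.58 above their Mig means, while ILMN_1236070 is at -0.40 and ILMN_1253312 at 0.02.

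Promoter windows of RefSeq (GRCm38.p6, 250 bases before to 50 after a start site) were found for 4 of the 5 genes, all but Csf2rb. The start site they imply is the gene's annotated outer end for Csf2rb2 and Il5ra, but lies 43 bases inside the gene for Csf2ra and 583 bases inside for Il3ra, whose window is therefore wholly within the gene. Distances below are from these implied sites. Those of Csf2rb2 and Il3ra are shown because these genes were called in both comparisons, and that of Csf2ra for contrast. Capitals mark matches, on either strand, to TTCNNNGAA (a STAT site) or GAGGAA (a core bound by PU.1 and other ETS factors). Csf2rb2 lies on the minus strand, chr15:78305672-78305971, Il3ra on the plus strand, chr14:14346245-14346544, and Csf2ra on the minus strand, chr19:61228369-61228668.
Csf2rb2: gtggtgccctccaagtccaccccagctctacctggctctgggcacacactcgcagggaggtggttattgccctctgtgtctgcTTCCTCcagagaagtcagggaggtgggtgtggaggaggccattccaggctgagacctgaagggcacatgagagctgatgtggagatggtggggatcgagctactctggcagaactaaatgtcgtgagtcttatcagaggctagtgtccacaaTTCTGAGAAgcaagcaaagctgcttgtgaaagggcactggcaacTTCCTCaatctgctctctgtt
Il3ra: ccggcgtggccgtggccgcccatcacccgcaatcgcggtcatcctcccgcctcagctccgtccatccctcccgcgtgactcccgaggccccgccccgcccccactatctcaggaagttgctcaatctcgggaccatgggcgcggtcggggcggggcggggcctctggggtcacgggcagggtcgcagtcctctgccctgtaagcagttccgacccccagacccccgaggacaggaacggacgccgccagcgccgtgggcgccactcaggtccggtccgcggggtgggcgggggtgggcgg
Csf2ra: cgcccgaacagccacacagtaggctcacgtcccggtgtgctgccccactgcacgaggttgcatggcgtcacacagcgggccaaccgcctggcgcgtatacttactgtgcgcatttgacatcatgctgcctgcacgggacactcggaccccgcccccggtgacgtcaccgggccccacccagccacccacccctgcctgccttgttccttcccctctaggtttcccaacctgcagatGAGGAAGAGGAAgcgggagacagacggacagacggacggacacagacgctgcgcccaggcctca

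The STAT motif was found in 1 of the 4 windows, that of Csf2rb2, 15 bases before the start, and 8.3% of all 32851 windows held one. GAGGAA was found in 3 of the 4, Csf2ra, Csf2rb2 and Il5ra, against 28.3% of all windows, and the 2 matches of Csf2ra lie next to each other from 14 bases before the start. The RUNX core motifs TGTGGT and TGCGGT, which 16.8% and 6.45% of all windows held, had 0 matches in the 4 windows. A match is a run of letters and not a measured site, and no match says only that these letters are not in these windows.

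Among the alpha chains, Il3ra on chromosome 14 (14345912 to 14355493) separated cells with and without the fusion. Its probe, ILMN_2916571, read 7.75, 7.63 and 7.60 on the Mig arrays and 7.39, 7.46 and 7.65 on the Mig+GM arrays. The RE arrays had 8.07, 8.50 and 8.49, the RE+GM arrays 8.40, 8.62 and 8.64. No RUNX1-ETO array overlapped a control array. The change was 0.70 without GM-CSF (SE 0.13, adjusted p = 0.00115) and 1.05 with it (SE 0.13, adjusted p = 4.66e-05). The first call was lost when arrays were scaled to 1 median (0.42, adjusted p = 0.111, range over alternatives 0.000168 to 0.111).

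Csf2ra, on chromosome 19 (61217191 to 61228461), encodes the GM-CSF-specific chain, and its groups overlapped. Its probe, ILMN_2866276, read 7.91, 6.90 and 7.16 on the Mig arrays and 7.35 and 7.48 on Mig+GM replicates 2 and 3, but 8.51 in Mig+GM replicate 1, the highest of all 12 arrays. RE arrays read 8.36, 8.14 and 7.87 and RE+GM arrays 8.25, 8.34 and 7.85. RE and Mig thus overlapped through Mig replicate 1, and RE+GM and Mig+GM through Mig+GM replicate 1. The change was 0.80 without GM-CSF (SE 0.31, 95% interval 0.11 to 1.49, adjusted p = 0.0645) and 0.37 with it (SE 0.31, 95% interval -0.32 to 1.05, adjusted p = 0.396). A replicate block left the first at 0.80 and called it (SE 0.21, adjusted p = 0.00913), and RE was above Mig in 3 of 3 same-numbered pairs. Without Mig replicate 1 it became 1.09 (adjusted p = 0.0181). Without Mig+GM replicate 1, which entered only the estimate of the spread, it kept its size and passed as well (adjusted p = 0.0213, range over alternatives 0.00913 to 0.247). The second became 0.73 without Mig+GM replicate 1 (adjusted p = 0.0478, range over alternatives 0.0478 to 0.779).

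Markers of myeloid cell types were high on the same control arrays as Csf2ra. The mean level of 7 monocyte and macrophage genes was 9.05 on Mig replicate 1 against 7.70 and 7.96 on replicates 2 and 3, and 8.73 on Mig+GM replicate 1 against 7.95 and 7.87. It was 9.17 to 9.74 in RE and 8.87 to 9.07 in RE+GM. The mean of 11 neutrophil genes was 10.97 and 11.28 on these same 2 control arrays, against 9.15 to 9.47 on the other control arrays and 8.17 to 9.63 with RUNX1-ETO. For 7 dendritic cell genes the 2 arrays had 9.27 and 9.35, the other control arrays 7.58 to 8.47 and the RUNX1-ETO arrays 8.82 to 9.85. The summed normalized signal of the monocyte list was 2062 to 10179 in Mig, 2709 to 7998 in Mig+GM, 13813 to 16757 in RE and 9554 to 13938 in RE+GM. In that list 4 of 7 genes were called higher and 1 lower without GM-CSF, where 17.0% of all probes were higher and 21.2% lower. With GM-CSF 2 were higher and 1 lower, where 19.3% of all probes were higher and 23.9% lower. The part of these cell types in the receptor levels was not tested.

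Mast cell and basophil genes, whose cells carry the IL-3 receptor, had a mean level of 9.63 to 9.99 in Mig and 9.84 to 9.95 in RE, with 5 of 11 called higher and 2 lower. With GM-CSF the means were 9.11 to 9.51 in Mig+GM and 9.10 to 9.70 in RE+GM, again with 5 of 11 higher and 2 lower. Of all probes 17.0% were higher and 21.2% lower without GM-CSF, and 19.3% and 23.9% with it. Of the 11 genes, 8 were above background on each Mig and Mig+GM array, and 11 on each RE and RE+GM array. The mast cell protease gene Cpa3 rose by 2.02 without GM-CSF, and the basophil protease genes Prss34 and Mcpt8 changed by -3.05 and -1.84. The summed signal of the list was 30403 to 41696 in Mig, 50955 to 63678 in RE, 15672 to 26582 in Mig+GM and 49348 to 57845 in RE+GM. Whether these cells contribute to Il3ra and the beta chains was not tested.

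Il5ra, on chromosome 6 (106710375 to 106749037), stayed near background. Its probe, ILMN_2773153, read 6.48, 6.49 and 6.39 on the Mig arrays and 6.29, 6.24 and 6.38 on the Mig+GM arrays. The RE arrays had 6.49, 6.47 and 6.52, the RE+GM arrays 6.48, 6.41 and 6.50. It was above background on all arrays of Mig, RE and RE+GM but on 1 of 3 Mig+GM arrays. The change with RUNX1-ETO was 0.03 without GM-CSF (95% interval -0.13 to 0.20, adjusted p = 0.764) and 0.16 with it (95% interval -0.01 to 0.32, adjusted p = 0.116). All Mig+GM arrays lay below all Mig and all RE+GM arrays, by amounts that did not pass. Of 4 other eosinophil genes measured, 0 rose and 1, Ear6, fell without GM-CSF (-1.28, adjusted p = 0.0107), and with GM-CSF 0 of the 4 were called.

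Over the whole set, 3 of 7 probes were called without GM-CSF, all higher, where 38.1% of all probes were called in that comparison (17.0% higher, 21.2% lower). With GM-CSF 5 of 7 were called, all higher, against 43.2% of all probes (19.3% higher, 23.9% lower). The median change of the 7 probes was 0.70 without and 1.05 with GM-CSF, and that of all probes -0.05 in each. RE and Mig arrays did not overlap for 3 of the 7 probes, each higher in RE, beside 46.3% of all probes without overlap (20.2% higher, 26.1% lower). RE+GM and Mig+GM arrays did not overlap for 6 of the 7, each higher in RE+GM, beside 53.9% of all probes (23.5% higher, 30.5% lower). These 7 probes include 3 of 1 gene and neighbours of near-identical sequence, so that they are not 7 independent readings. When arrays were scaled to 1 median, 1512 probes of the array were called higher and 4519 lower without GM-CSF, in place of 2613 and 3260.

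**Figure D3:**
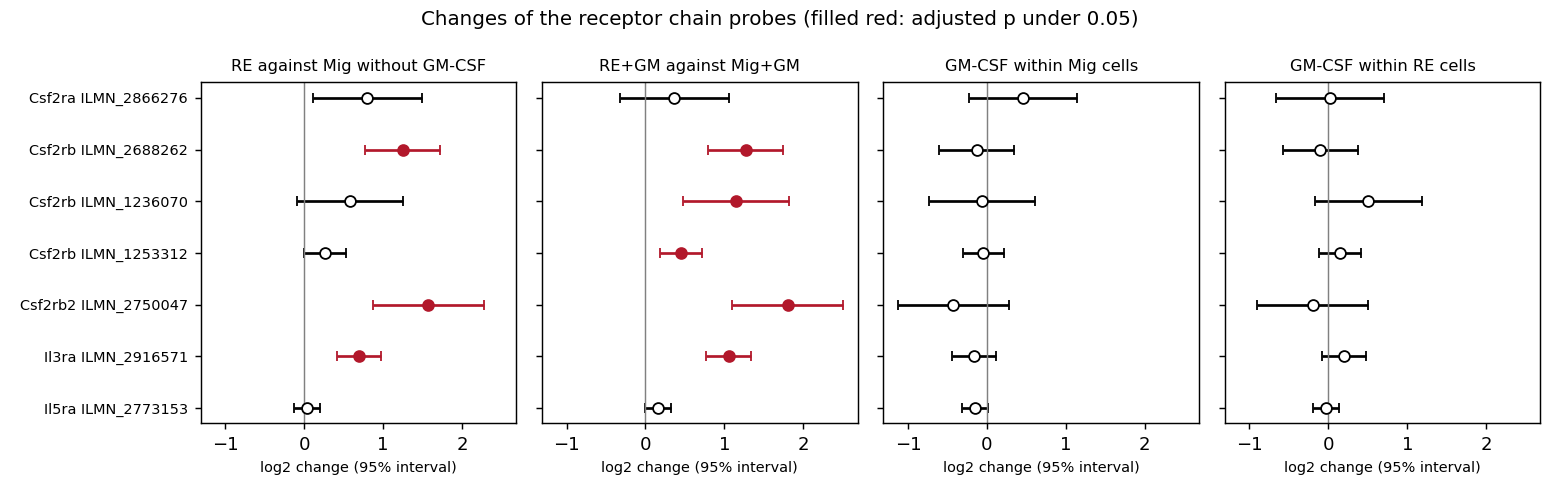
Log2 changes of the 7 probes with 95% intervals from limma in 4 comparisons; filled red points passed an adjusted p of 0.05. The 3 called probes without GM-CSF and the 5 with it all lie to the right of 0, and no probe passed in the comparisons of GM-CSF with no GM-CSF.

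The response of the receptor genes to GM-CSF, the ligand of the chains encoded by Csf2ra and Csf2rb, was read next. After 24 h of GM-CSF 0 of 7 probes were called in Mig cells and 0 of 7 in RE cells, where 0% and 1.99% of all probes were called (in RE cells 1.72% higher and 0.273% lower). Groups did not overlap for 1 of 7 in Mig cells, Il5ra, lower with GM-CSF, beside 9.27% of all probes (4.31% higher, 4.96% lower). In RE cells this held for 0 of 7, beside 22.7% (9.94% higher, 12.8% lower). In Mig cells 757 of the 15405 probes (4.91%) had an unadjusted p from limma under 0.05, none of them a receptor chain probe. That share is close to what this threshold alone would give. The largest estimates in Mig cells were 0.46 for Csf2ra (SE 0.31, 95% interval -0.23 to 1.15) and -0.42 for Csf2rb2 (SE 0.32, 95% interval -1.13 to 0.28). These intervals do not use the replicate numbers as pairs. By replicate number, Csf2ra was higher with GM-CSF in each pair (7.91 to 8.51, 6.90 to 7.35 and 7.16 to 7.48). With the replicate block in limma its change was still not called (adjusted p = 0.665). Csf2rb2 was lower with GM-CSF in pairs 1 and 2 but not in pair 3. In Mig cells the Csf2rb probe ILMN_2688262 differed by -0.13 (95% interval -0.60 to 0.35) and Il3ra by -0.16 (95% interval -0.44 to 0.12). In RE cells Csf2ra differed by 0.02 (95% interval -0.66 to 0.71), Csf2rb2 by -0.20 (95% interval -0.90 to 0.51) and Il3ra by 0.20 (95% interval -0.08 to 0.48). The Csf2rb probes differed in RE cells by -0.10 (95% interval -0.58 to 0.37, ILMN_2688262), 0.51 (-0.17 to 1.18, ILMN_1236070) and 0.14 (-0.12 to 0.41, ILMN_1253312). For Csf2ra and Csf2rb2 in Mig cells and ILMN_1236070 in RE cells, 1 end of the interval lies beyond a change of 1 on the log2 scale.

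The replicate numbers paired the arrays of these comparisons, and with the number as a block limma called 753 probes in RE cells in place of 307 and still 0 in Mig cells, with 0 receptor chain probes in either. In the interaction, which asks whether RUNX1-ETO acts differently with and without GM-CSF, 0 of 7 receptor chain probes were called against 0.175% of all probes (27, or 61 with the block). The largest interaction estimates were 0.57 for Csf2rb ILMN_1236070 (95% interval -0.39 to 1.52), -0.44 for Csf2ra (95% interval -1.41 to 0.54) and 0.36 for Il3ra (95% interval -0.04 to 0.75, adjusted p = 0.609). The comparison within Mig shares its Mig arrays, and that within RE its RE arrays, with the comparison of RE and Mig.

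The ligand genes were not tested. The Csf2 and Il3 probes were above background on 0 of 12 arrays and the Il5 probe on 1.

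Genes that work next to or below the receptor moved in both directions. Of 107 listed pathway genes 77 were measured, and 22 of these are receptors of other cytokines, which belong to neither kind. Of all 77, 23 were higher and 9 lower in RE than in Mig cells, 41.6% in all against 38.1% of all probes. With GM-CSF 23 were higher and 10 lower, 42.9% against 43.2%. By direction, 17.0% of all probes were higher and 21.2% lower without GM-CSF, and 19.3% and 23.9% with it. Rises thus outnumbered falls among the listed genes and falls outnumbered rises over all probes, but the lists were chosen with earlier results known. The median changes of the 77 genes were 0.19 without GM-CSF and 0.20 with it.

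The JAK and STAT list had 4 rises, 0 falls and 3 of 7 not called in each comparison (median 0.57 and 0.72). Jak2, the kinase held by the beta chain, differed by 0.40 without GM-CSF (adjusted p = 0.193) and rose by 0.87 with it (SE 0.23, adjusted p = 0.00788). Jak3, the kinase of the common gamma chain receptors, rose by 1.24 and 0.98, and Stat3, which many cytokines activate, by 1.38 and 1.08. Stat5a, a main transcription factor of this pathway, rose by 0.57 without GM-CSF (SE 0.18, adjusted p = 0.0244) and differed by 0.43 with it (adjusted p = 0.0709). Tyk2 rose by 0.47 and then differed by 0.34, Jak1 differed by 0.60 (adjusted p = 0.0799) and then rose by 0.72, and Stat6 differed by -0.03 and -0.12.

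Adaptors and kinases of the RAS and PI3K branches were split, with 4 rises, 4 falls and 9 of 17 not called without GM-CSF and 3, 4 and 10 with it (median 0.00 and -0.01). Gab1, a docking adaptor, rose by 2.05 (SE 0.14, adjusted p = 1.15e-06) and 1.90. Pik3r1, a regulatory subunit of PI3K, rose by 0.91 and 0.70. Another such subunit, Pik3r2, fell by 0.59 and 0.60, and the phosphatase gene Ptpn11, which links receptors to RAS, by 0.36 and 0.39. Of 6 kinases and exchange factors bound by the receptor, only Fes was called, without GM-CSF (0.59, adjusted p = 0.0236). Without and with GM-CSF the others differed by 0.24 and 0.38 (Btk), -0.18 and 0.30 (Fyn), 0.00 and 0.00 (Syk), -0.52 and 0.06 (Tec), and -0.29 and -0.16 (Vav1).

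Negative regulators of receptor signalling moved in both directions. Among negative regulators 3 rose, 1 fell and 7 of 11 were not called in each comparison (median 0.34 and 0.33). The suppressors of cytokine signalling Socs3 and Socs2 rose by 1.99 and 1.71 without GM-CSF and by 1.77 and 2.24 with it. Cish, a STAT5-induced member of that family, rose by 1.28 (SE 0.17, adjusted p = 0.000125) and 1.19. Dok2, an adaptor that restrains RAS, fell by 1.61 and 1.20.

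Among common targets of these cytokines 5 rose, 2 fell and 7 of 14 were not called without GM-CSF, and 6, 2 and 6 with it (median 0.54 and 0.64). Junb and Fos, parts of AP-1, rose by 2.31 and 3.26 and then by 1.85 and 3.85, and Pim1, a survival kinase induced by STAT5, by 0.78 and 1.13. The growth genes Myc and Ccnd3 fell by 0.58 and 0.55 without GM-CSF and by 0.70 and 0.83 with it. Another cyclin gene of the list, Ccnd2, rose by 0.75 and 0.56. The survival gene Bcl2l1 differed by 0.93 without GM-CSF (adjusted p = 0.0543) and rose by 1.91 with it.

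**Figure D4:**
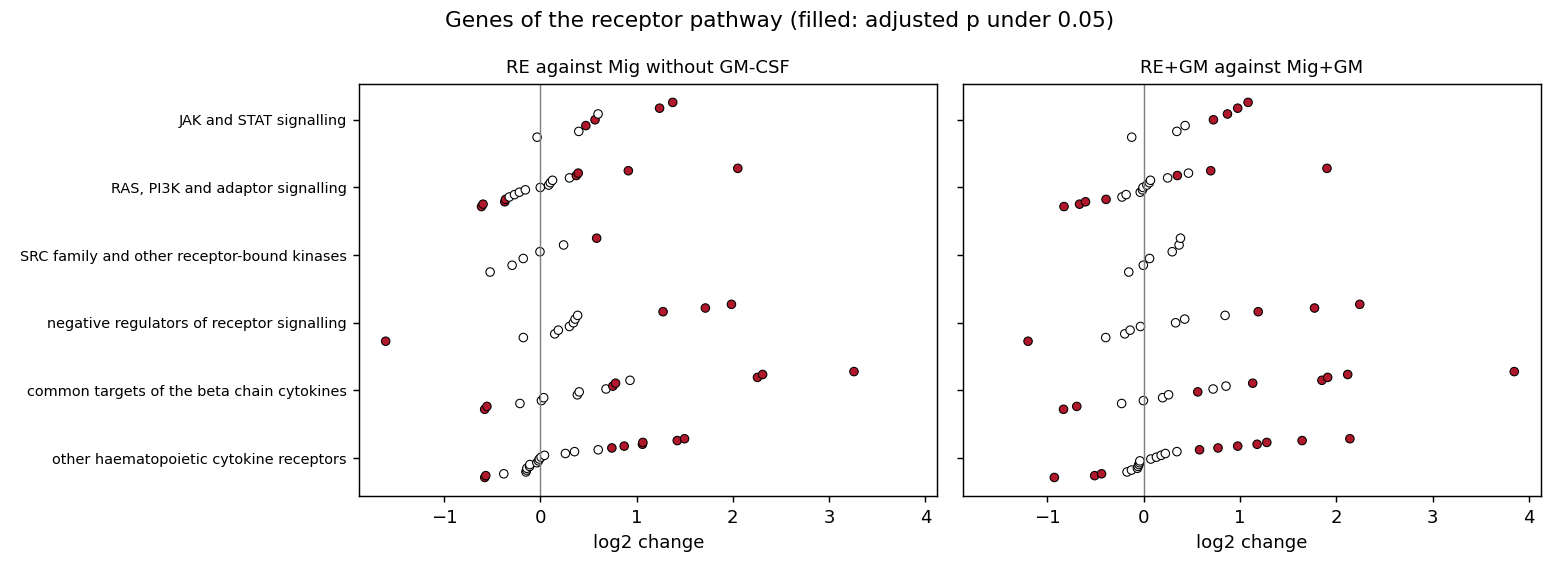
Log2 changes of 77 pathway genes, one point per gene at its brightest probe, by list, without GM-CSF (left) and with it (right); filled points passed an adjusted p of 0.05. The JAK and STAT list has 4 filled points to the right of 0 in each panel and none to the left, while the RAS and PI3K list has filled points on both sides.

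Receptors of other cytokines gave 6 rises, 2 falls and 14 of 22 not called without GM-CSF, and 7, 3 and 12 with it (median 0.00 and 0.10). Il6st, the signal chain of the IL-6 family, rose by 1.50 and 1.65, Il13ra1, a chain for IL-13 and IL-4, by 1.42 and 2.14, and Il10ra by 0.87 and 0.77. The interferon gamma receptor gene Ifngr1 fell by 0.58 and 0.93. In response to GM-CSF, 0 of 77 pathway genes were called in Mig cells, where 0% of all probes were. In RE cells 3 rose (3.9%, against 1.99% of all probes called). From the receptors of other cytokines this was Il2ra, the IL-2 receptor alpha chain (1.02, SE 0.14, adjusted p = 0.00348). From the common targets they were Pim1 (0.77, SE 0.16, adjusted p = 0.029) and Id1 (0.78, SE 0.16, adjusted p = 0.0345). The median changes of the 77 genes were 0.00 and 0.02. The STAT5-induced Cish was not called, but differed by 0.78 in Mig cells (SE 0.17, adjusted p = 0.536). In RE cells Cish differed by 0.70 (SE 0.17, adjusted p = 0.0616). The lack of calls in Mig cells therefore does not show that no pathway gene responded. The pathway genes were not read with the replicate block, under which 753 probes of the whole array were called in RE cells in place of 307.

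Genes whose pattern over the 12 arrays was nearest to each receptor gene were found by the distance above that includes the shift between groups. Nearest to Csf2ra were Aldh3b1 (0.15), Rassf4 (0.16) and Irf8 (0.17), a transcription factor of monocytes and dendritic cells, where the median distance of all named probes was 0.56. Nearest to the brightest Csf2rb probe were Sphk2 (0.14), Tgfbr2 (0.15) and Yipf3 (0.17), with a median of 0.72. Csf2rb2 had Psen2 (0.28), Tgfbr2 (0.29) and Sesn1 (0.29), with a median of 0.98. Il3ra had Clptm1 (0.10), Dgka (0.11) and Copz2 (0.11), with a median of 0.52. For Il5ra they were Elk4, Tmem169 and Kif1b (0.06 each, median 0.25). The Il5ra probe itself varied little (SD 0.09 over the 12 arrays), so small distances from it say little about a shared pattern.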

How the data were processed

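Biotin-labelled RNA was hybridized to the BeadChips, per the labels' protocols. The values used were deposited bead intensities that had not been normalized, without detection calls. The authors also deposited intensities normalized by a method not given in the sources used here; these served as an alternative. Both rank the probes of an array alike (rank correlation 1). Signals were corrected with normexp (offset 50), then quantile normalization and log2 followed, with limma 3.58.1 under R 4.3.3. Probes above background (mode and lower flank of each array's signals, p under 0.05) on at least 3 of 12 arrays were kept, 15405 of 25697, a filter whose background estimate was chosen after seeing the data; all 7 receptor chain probes passed, so none was lost.

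Each probe was fitted in a group-means model over all 12 arrays with lmFit and eBayes, two-sided, with Benjamini-Hochberg adjustment over all kept probes within each comparison. For pathway and marker lists the brightest kept probe of a gene was used. Gene names came from the platform annotation (23978 probes with 1 gene, 0 with several, 1719 not listed; 23962 identifiers matched, 0 symbols updated). Genes named are all receptor chain genes, list genes among the 3 smallest p per direction or in lists of 10 or fewer, and the 3 nearest profiles; marker genes and some further list genes were named after their values were seen. The members and lists were chosen with earlier results of these data known. The number of arrays limits the precision, and 0 columns of values were left unused.

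Whether replicate numbers pair arrays was checked after removing group means: correlations of same-numbered arrays across probes were 0.61, 0.64 and 0.73 for Mig with Mig+GM, 0.11, 0.3 and 0.32 for RE with RE+GM, and 0.32, 0.25 and 0.42 for Mig+GM with RE+GM, which was taken as pairing. Between Mig and RE they were 0.21, 0.07 and 0.52, so that 1 pair missed the limit for pairing, although the other comparisons link these groups by number. The block is therefore given beside the receptor chain result whose call it changes. Pathway and marker genes were read only from the fit without the block. Alternatives covered scaling, source table, background correction, filter, replicate block, variance trend and leaving out each array.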

Additional observations from a re-analysis of the deposited data

How the results depend on the processing

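Over 19 alternatives (12 of them leaving out an array each), the calls of Csf2rb ILMN_2688262 and Csf2rb2 held in both comparisons of RUNX1-ETO with control, as did the other 3 calls with GM-CSF; the call of Il3ra without GM-CSF was lost under median scaling. Without background correction the values hardly differed from the main ones. Leaving out 1 array at a time gave 3 to 5 receptor chain probes called in RE against Mig (5 without RE replicate 1), 0 to 1 probes of the whole array for GM-CSF in Mig cells, 105 to 1187 for GM-CSF in RE cells (307 with all arrays, 1187 without RE replicate 3 and 105 without RE+GM replicate 2) and 10 to 228 for the interaction (27 with all arrays, 228 without RE replicate 3). Whole-array counts for GM-CSF in RE cells were 482 with the authors' table (340 higher and 142 lower, against 265 and 42) and 753 with the replicate block. For the interaction they were 16 with median scaling, 16 with an offset of 16, 61 with the replicate block and 54 with an intensity trend, which gave 1 for GM-CSF in Mig cells. The cause of these moves was not tested. Median scaling moved the median interaction of all probes from -0.01 to 0.17.

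Signs turned only in estimates that were not called. With GM-CSF in RE cells, Csf2ra became -0.024 with the authors' table, and under median scaling Csf2rb ILMN_2688262 became 0.13, Csf2rb2 0.094 and Il5ra 0.0043. Over left-out arrays, the ranges were -0.37 to 0.053 for Csf2rb ILMN_2688262 with GM-CSF in Mig cells, and -0.10 to 0.17 for Csf2ra and -0.25 to 0.062 for Csf2rb ILMN_2688262 in RE cells. For the interaction they were -0.16 to 0.26 for Csf2rb ILMN_2688262 and -0.082 to 0.65 for Csf2rb2. In RE against Mig, where 1 of 3 same-numbered pairs missed the limit for pairing, with the replicate block Csf2ra, at the same 0.80, passed (adjusted p = 0.00913), and the whole array had 6741 calls in place of 5873. The replicate block changed no other receptor chain call. Slide or scan as a block was not run, since the tables name neither. Il5ra lay close to background, which limits what its signal can show.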
